A study of Mus musculus with 8 samples.

Results

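The small proline-rich (Sprr) genes were examined in the epidermis of newborn mice that lacked EED. Of the 10 Sprr genes chosen by name, 9 had a probe on the arrays, each with a single spot, and these were 9 of 55681 probes for 36799 genes and other targets. The member without a probe was Sprr2a1. Probes were assigned to the members through the RefSeq accession that each one carried. RNA came from the back skin epidermis of C57BL/6 mice at postnatal day 0, with 4 EED cKO and 4 control samples, and each sample was hybridised with Universal Mouse Reference RNA, a common pool, on a 2-colour Agilent array. The EED cKO mice carried K14-Cre with EED flox/flox, so that deletion was confined to epithelium in which the keratin 14 promoter is or has been active. The labels describe the other group only as control, and do not say which alleles it carried or the sex of either group. The sample was in Cy3 in replicates 1 and 3 of both genotypes and in Cy5 in replicates 2 and 4. Nothing in the labels says how the samples relate to litters, so p-values measure only the spread between these samples.

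Sprr proteins are short, soluble precursors of the cornified envelope, the protein shell that replaces the plasma membrane of keratinocytes at the end of their differentiation. Transglutaminases join them through glutamine and lysine residues near their ends to loricrin, involucrin and other envelope proteins, and the share of Sprr protein in the envelope differs between epithelia and after injury. The genes lie together in the epidermal differentiation complex, a stretch of one chromosome that also holds the loricrin, involucrin, filaggrin and late cornified envelope genes. EED is a core subunit of Polycomb repressive complex PRC2, which methylates histone H3 at repressed genes.

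The members fall into 4 classes. Sprr1a and Sprr1b encode envelope cross-bridging proteins that are inducible in stressed or differentiating keratinocytes. The Sprr2 class, here Sprr2a1, Sprr2b, Sprr2d, Sprr2e, Sprr2f and Sprr2h, is a set of close copies used in skin and in other epithelia such as the uterus. Sprr3 is best known from the oral cavity and the oesophagus, and Sprr4 encodes a further envelope precursor of the skin. All 10 members had an entry among the 32851 RefSeq promoters (build GRCm38.p6), and the 250 bases before each annotated start were searched on both strands. The letters TGANTCA, the core of an AP-1 site, were present before 7 of the 10 members and before 6.75% of all promoters. The letters TATAAA, the core promoter box of many tissue-specific genes, were present before 8 members and before 12.4% of all promoters. Shared ancestry makes the copies dependent on each other. The same bases were 60.8% to 89.3% identical between pairs of Sprr2 members other than Sprr2a1, highest between Sprr2d and Sprr2e. Sprr2a1 was 45.8% to 49.6% identical to the other Sprr2 members. The remaining pairs of members were 46.0% to 56.5% identical.

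The 200 bases before the start are shown for the 6 members whose RNA could be tested, because these are the genes that were compared between genotypes. They lie at chr3:92485882-92486081 for Sprr1a, chr3:92438780-92438979 for Sprr1b and chr3:92500494-92500693 for Sprr4, all on the minus strand, and at chr3:92338940-92339139 for Sprr2d, chr3:92351943-92352142 for Sprr2e and chr3:92385485-92385684 for Sprr2h on the plus strand. Each runs 5′ to 3′ and ends at the base before the start, and capitals mark TGANTCA and TATAAA.
Sprr1a: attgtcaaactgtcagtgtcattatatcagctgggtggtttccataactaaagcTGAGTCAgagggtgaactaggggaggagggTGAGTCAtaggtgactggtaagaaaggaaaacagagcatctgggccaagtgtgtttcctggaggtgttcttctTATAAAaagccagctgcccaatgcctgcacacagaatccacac
Sprr1b: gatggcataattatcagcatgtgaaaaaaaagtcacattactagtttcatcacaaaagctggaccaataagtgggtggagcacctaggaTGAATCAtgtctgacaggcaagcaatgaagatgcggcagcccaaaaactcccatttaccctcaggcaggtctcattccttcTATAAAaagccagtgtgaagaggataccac
Sprr2d: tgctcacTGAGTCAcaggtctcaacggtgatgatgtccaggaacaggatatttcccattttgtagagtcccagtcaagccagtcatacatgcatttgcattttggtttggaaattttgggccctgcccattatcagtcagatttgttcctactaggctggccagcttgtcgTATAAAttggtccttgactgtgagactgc
Sprr2e: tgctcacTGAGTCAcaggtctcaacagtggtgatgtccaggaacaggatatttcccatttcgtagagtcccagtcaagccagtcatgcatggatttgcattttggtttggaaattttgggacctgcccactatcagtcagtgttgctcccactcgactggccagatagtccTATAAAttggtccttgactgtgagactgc
Sprr2h: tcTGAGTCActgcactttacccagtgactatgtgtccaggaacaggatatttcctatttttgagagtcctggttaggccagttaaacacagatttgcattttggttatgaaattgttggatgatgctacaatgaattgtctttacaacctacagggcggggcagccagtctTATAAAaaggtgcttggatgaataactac
Sprr4: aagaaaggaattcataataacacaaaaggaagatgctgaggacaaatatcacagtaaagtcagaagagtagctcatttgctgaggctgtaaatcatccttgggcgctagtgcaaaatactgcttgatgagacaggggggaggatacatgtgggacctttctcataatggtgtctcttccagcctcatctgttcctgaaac
In Sprr2d and Sprr2e the AP-1 letters began 193 bases before the start, and in Sprr2h 198 bases before it. Sprr1a held 2 matches, at 146 and 116 bases, and Sprr1b held 1 at 111 bases. The TATA letters began 29 bases before the start in each of the Sprr2 members shown, 30 bases before it in Sprr1b and 43 bases before it in Sprr1a. Sprr4 held neither. Among the members not shown, Sprr2b and Sprr2f had both sets of letters, Sprr3 had the TATA letters alone, and Sprr2a1 had neither.

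**Figure D1:**
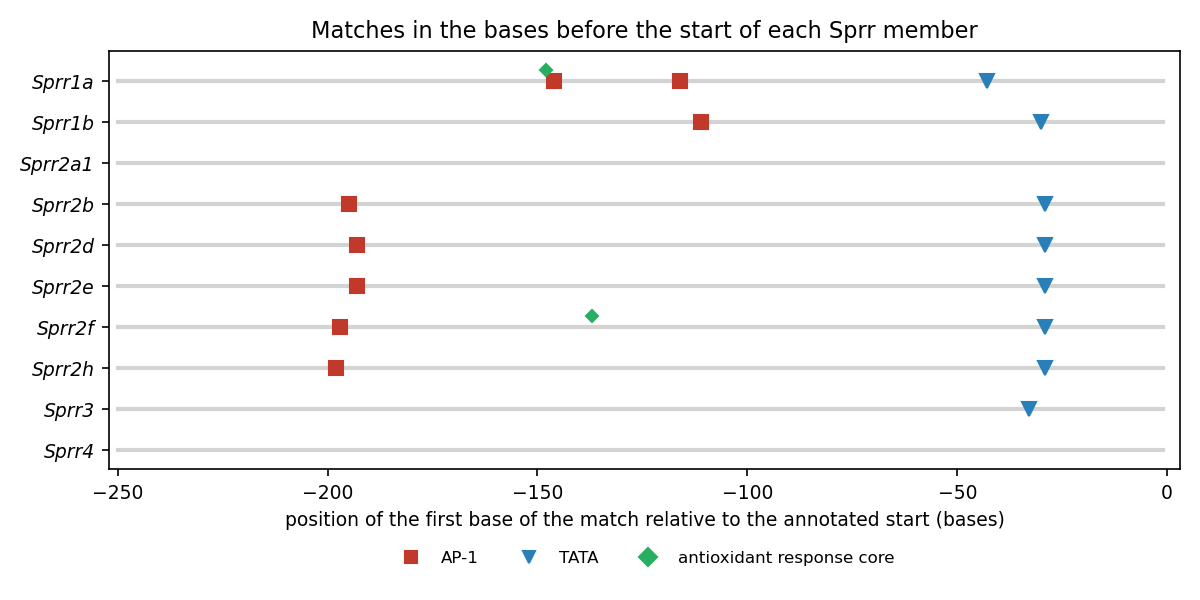
Matches to 3 sets of letters in the 250 bases before the annotated start of each of the 10 Sprr members, with the position of the first base of each match on the horizontal axis and members in rows. TGANTCA (AP-1, red squares) lies between 193 and 198 bases before the start in 5 Sprr2 members, TATAAA (blue triangles) between 29 and 43 bases before it in 8 members, and TGACNNNGC (green diamonds) in 2 members.

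The antioxidant response core TGACNNNGC was found before Sprr1a and Sprr2f, against 10.2% of all promoters, and in Sprr1a it overlapped the more distant AP-1 match. The KLF letters CCACACCC (3.2% of promoters), the grainyhead letters AACCGGTT (0.116%) and an interferon response element (2.98%) were before none of the 10 members. These letters are a description of the sequence and no measure of binding.

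The targeted gene was checked first. Eed had log2 ratios to the reference of -1.74, -2.04, -1.78 and -1.66 in the EED cKO samples and -0.18, -0.46, -0.31 and -0.42 in the control samples, so the genotypes did not overlap. Its log2 fold change was -1.46 ± 0.09 (SE) with an adjusted p of 2.1e-05 in limma. Krt5, Krt14, Krt1 and Krt10, the keratins of basal and suprabasal epidermis, were well above background on all 8 arrays. The share of spots whose sample signal cleared background was 51.5% to 65.5% per array. All arrays were on 1 slide with each genotype in its own row, so that genotype and row cannot be told apart. The Y-linked genes were bright in control replicates 2 and 3, with a mean log2 ratio of 1.19 and 1.02, and lay between -1.51 and -1.31 on the other 6 arrays, the 4 EED cKO arrays included.

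Sprr1a, Sprr1b, Sprr2d, Sprr2e, Sprr2h and Sprr4 passed the filter on dim probes, and the sample signal of each cleared background by the scanner's criterion on all 4 arrays of both genotypes. The other 3 members with a probe did not pass. Of these 6, 5 were higher in EED cKO epidermis at an adjusted p below 0.05 in limma and 0 were lower, and Sprr1a and Sprr1b exceeded 2-fold. At an unadjusted p below 0.05 in limma 6 were higher and 0 lower. Over all 23234 genes and other targets tested, 21.7% passed by the same criterion, 11.8% higher and 9.91% lower, and 1.22% also changed by 2-fold or more, 1.11% upwards. The log2 fold changes of the 6 members had a median of 0.79 and ran from 0.44 to 1.56, against a median of 0.02 over all targets tested, with 5th and 95th percentiles of -0.43 and 0.50. From the top of the 23234 fold changes, Sprr1a was at rank 75, Sprr1b at 82, Sprr2e at 401, Sprr2h at 437, Sprr4 at 507 and Sprr2d at 1449. A bulk sample cannot separate more RNA per cell from a larger share of the cells that express the gene.

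**Figure D2:**
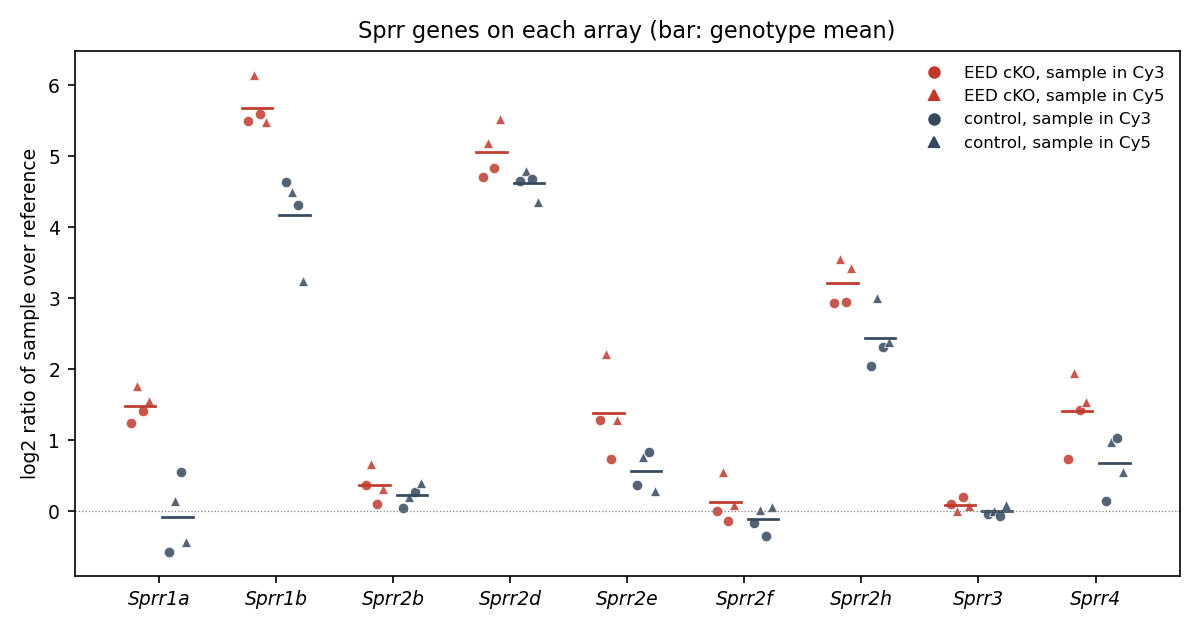
Log2 ratio of sample over reference (vertical axis) for the 9 Sprr members with a probe, 1 point per array, with EED cKO in red, control in dark blue, circles for samples in Cy3, triangles for samples in Cy5 and a bar at each genotype mean. The 2 genotypes are apart for Sprr1a and Sprr1b, overlap at the edges for Sprr2h, Sprr2e, Sprr4 and Sprr2d, and lie together near 0 for Sprr2b, Sprr2f and Sprr3.

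Sprr1a, an envelope cross-bridging protein that rises in stressed epithelia, had log2 ratios of 1.24, 1.76, 1.41 and 1.55 in EED cKO replicates 1 to 4. The control replicates had -0.57, 0.15, 0.56 and -0.43. All EED cKO samples were above all control samples, which was true of 9.68% of the targets tested, and the controls spread more widely (SD 0.52, n = 4) than the EED cKO samples (SD 0.22, n = 4). The log2 fold change was 1.56 ± 0.23 (SE), or 2.95-fold, with a 95% confidence interval of 1.04 to 2.08 on the log2 scale and an adjusted p of 0.00229 in limma. The call held in all 27 alternative settings, some of them near repeats of others, with log2 fold changes from 1.38 to 1.99. Both of its AP-1 matches lie in the stretch printed above.

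Sprr1b, the second cross-bridging protein of this class, had log2 ratios of 5.50, 6.15, 5.60 and 5.48 in EED cKO replicates 1 to 4 and 4.64, 4.50, 4.32 and 3.25 in the controls. Again no control sample reached the lowest EED cKO sample, and control replicate 4 was lower than the other 3 controls. The log2 fold change was 1.50 ± 0.28 (SE), or 2.84-fold, with an adjusted p of 0.00629 in limma. The reference channel was low and steady for this probe, at a mean log2 intensity of 6.46 on the EED cKO arrays and 6.39 on the control arrays, while the sample channel moved from 10.56 in controls to 12.14 in EED cKO epidermis. Without control replicate 4 the log2 fold change was 1.17, with an adjusted p of 0.00307.

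In the Sprr2 class, Sprr2h, an envelope precursor, had log2 ratios of 2.94, 3.56, 2.95 and 3.42 in EED cKO and 2.04, 3.01, 2.32 and 2.39 in control replicates 1 to 4. The pooled genotypes overlapped, because control replicate 2 lay above EED cKO replicates 1 and 3, but within each dye they did not. The difference between genotypes was 0.77 among the Cy3 samples and 0.79 among the Cy5 samples, and limma gave 0.78 ± 0.13 (SE), or 1.72-fold, with an adjusted p of 0.00353.

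Sprr2e, a close copy of Sprr2d in its upstream bases, had log2 ratios of 1.28, 2.21, 0.74 and 1.28 in EED cKO and 0.37, 0.77, 0.84 and 0.28 in control replicates 1 to 4. EED cKO replicate 3 lay below control replicates 2 and 3. The log2 fold change was 0.81 ± 0.25 (SE), or 1.75-fold, and the adjusted p of 0.0457 in limma was close to the threshold. The call was lost when any of 6 of the 8 arrays was left out, EED cKO replicates 1, 2 and 4 and control replicates 1, 2 and 4, with adjusted p-values from 0.071 to 0.108 in limma and log2 fold changes from 0.54 to 0.92.

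Sprr2d gave the one tested probe of a member that did not pass. Its log2 ratios were 4.71, 5.19, 4.83 and 5.53 in EED cKO and 4.65, 4.79, 4.68 and 4.35 in control replicates 1 to 4. Only EED cKO replicate 1 fell within the range of the controls. The log2 fold change was 0.44 ± 0.16 (SE), with a 95% confidence interval of 0.09 to 0.79 and an adjusted p of 0.0704 in limma. The genotypes differed by 0.10 among the Cy3 samples and by 0.79 among the Cy5 samples.

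For Sprr2d the reference channel, which held the same RNA on every array, moved with the sample channel. Its log2 intensity was 7.50, 8.91, 7.12 and 7.52 on the EED cKO arrays and 6.54, 7.45, 7.74 and 6.37 on the control arrays. The sample channel read 12.21, 14.09, 11.95 and 13.05 on the EED cKO arrays and 11.20, 12.23, 12.42 and 10.72 on the control arrays, so that EED cKO replicate 2 was highest and control replicate 4 lowest in both channels. When the sample channel was fitted alone, the log2 fold change of Sprr2d was 1.34 with an adjusted p of 0.0752 in limma, against 0.44 for the ratio. What moved the reference channel was not tested. Over the 8 arrays the reference channel had an SD of 0.78 for Sprr2d. The SD was 0.25 for Sprr1a and 0.27 for each of Sprr1b and Sprr2h. Sprr1a, Sprr1b and Sprr2h were also highest in both channels on EED cKO replicate 2. Sprr1a and Sprr2h were lowest in both channels on control replicate 1.

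**Figure D3:**
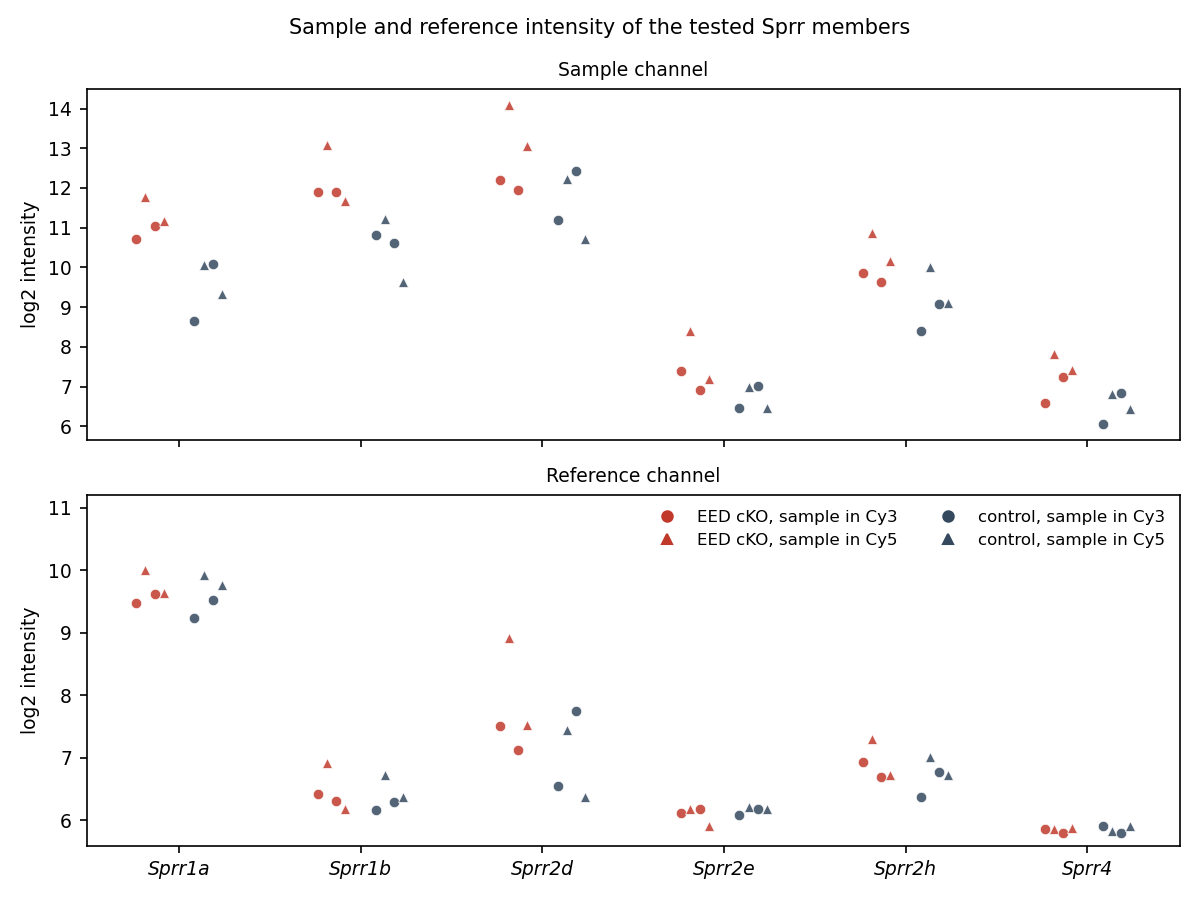
Log2 intensity in the sample channel (top) and in the reference channel (bottom) for the 6 Sprr members tested, 1 point per array, with genotype by colour and sample dye by shape. In the reference channel Sprr2d runs from 6.37 to 8.91 with its highest value on EED cKO replicate 2, and Sprr4 stays between 5.80 and 5.91.

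Sprr4, the further envelope precursor of the skin, had log2 ratios of 0.73, 1.95, 1.43 and 1.54 in EED cKO and 0.15, 0.98, 1.03 and 0.55 in control replicates 1 to 4. EED cKO replicate 1 lay below control replicates 2 and 3. The log2 fold change was 0.74 ± 0.23 (SE), or 1.66-fold, with an adjusted p of 0.0475 in limma. The reference channel of this probe was well above background on 1 of 8 arrays, so the ratio compares a measured sample with a reference near background. As for Sprr2e, leaving out any of 6 arrays ended the call, here EED cKO replicates 2, 3 and 4 and control replicates 1, 2 and 4, with adjusted p-values from 0.095 to 0.131 in limma.

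The remaining members were dim. Sprr2b had log2 ratios of 0.37, 0.66, 0.11 and 0.32 in EED cKO and 0.05, 0.20, 0.27 and 0.40 in control epidermis, and its sample signal cleared background on 2 of 4 arrays of each genotype. Sprr2f, best known from the uterus, was well above background on 1 EED cKO array, replicate 2 with a log2 ratio of 0.55, and on no control array, and its log2 ratios on the other 7 arrays lay between -0.35 and 0.09. Sprr3, the oral and oesophageal member, was not well above background on any of the 8 arrays, and its log2 ratios lay between -0.07 and 0.20. None of the 3 entered the fit.

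For all 6 tested members the difference between genotypes was larger among the Cy5 samples than among the Cy3 samples, from 0.77 against 0.79 for Sprr2h to 1.07 against 1.94 for Sprr1b and 0.41 against 1.22 for Sprr2e. Each dye held 2 arrays a genotype, and the difference between the dyes was not tested. The control arrays with Y-linked RNA, replicates 2 and 3, were the higher controls for Sprr1a, Sprr2d, Sprr2e and Sprr4, but not for Sprr1b or Sprr2h. Without those arrays 5 members were higher by 2-fold or more, against 2 with them: Sprr1a had a log2 fold change of 1.99, Sprr1b of 1.74, Sprr4 of 1.06, Sprr2e of 1.05 and Sprr2h of 1.00, while Sprr2d had 0.56 with an adjusted p of 0.100 in limma.

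**Figure D4:**
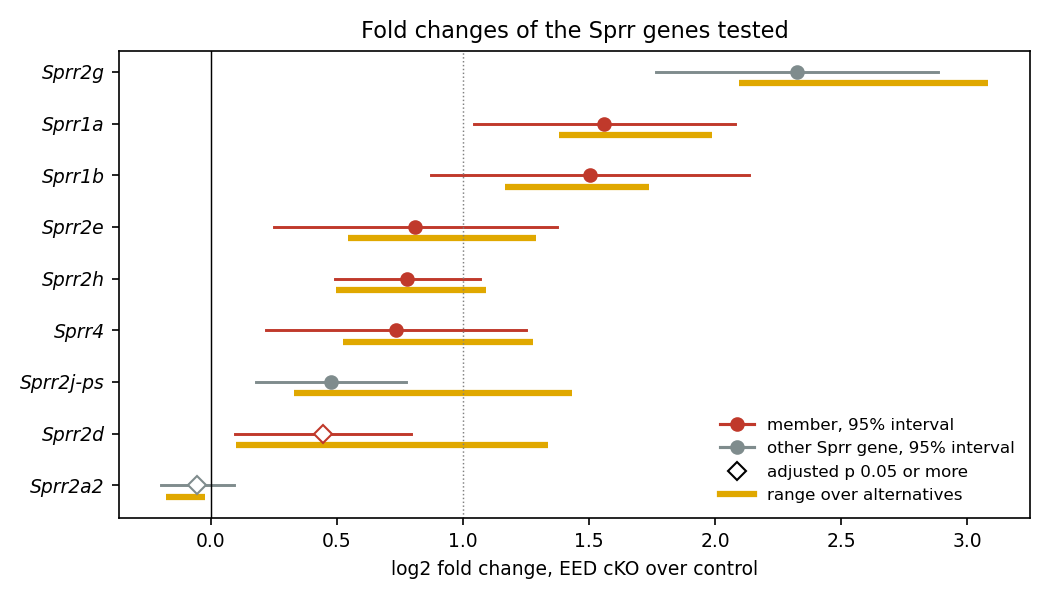
Log2 fold change of EED cKO over control (horizontal axis) for the 6 tested Sprr members in red and 3 other tested Sprr genes in grey, with 95% confidence intervals from limma, open diamonds where the adjusted p was 0.05 or more, and yellow bars for the range over the alternative settings. The dotted line marks 2-fold: the interval of Sprr1a (1.04 to 2.08) is above it and that of Sprr2h (0.49 to 1.07) crosses it.

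The arrays carried 7 probes for 5 further Sprr genes that are not members. Sprr2g, a transcribed pseudogene of the Sprr2 class, had log2 ratios of 1.10, 2.43, 1.17 and 2.37 in EED cKO and -0.87, -0.39, -0.21 and -0.75 in control replicates 1 to 4. The genotypes were well apart, and the log2 fold change of 2.32 ± 0.25 (SE), or 5.01-fold, had an adjusted p of 0.000571 in limma and rank 24 of all targets, above every member. Sprr2j-ps, another pseudogene, was higher by 0.48 ± 0.13 (SE) with an adjusted p of 0.0312 in limma. That call was lost in 10 of 26 alternatives, among them those without EED cKO replicate 1 or control replicate 2 or 4, with adjusted p-values up to 0.145. Sprr2i was well above background on 2 EED cKO arrays and no control array, and Sprr2k was not above background in the sample channel.

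Sprr2a2, a near copy of the unmeasured Sprr2a1 whose reference record also lists that name, had 3 probes that disagreed. The brightest was bright in both channels, with log2 ratios from -0.52 to -0.20, and its log2 fold change was -0.05 ± 0.06 (SE) with an adjusted p of 0.600 in limma. A second had log2 ratios from 4.54 to 5.04 and a log2 fold change of 0.18 ± 0.08 (SE) with an adjusted p of 0.129 in limma, and the third was near background. None of the 3 passed the test. The probe sequences were not used here, so how far a probe for one Sprr2 gene also reads its copies was not tested.

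The genes on either side of the cluster were measured in the same fit. No other protein-coding gene lay between the Sprr genes in the reference gene table. Lelp1, a late cornified envelope-like proline-rich gene that directly flanks the cluster, was higher by 1.01 ± 0.13 (SE) with an adjusted p of 0.00118 in limma, and its EED cKO range of 2.49 to 3.27 was above its control range of 1.53 to 2.12. On the same side Prr9, Lor and Pglyrp3 had log2 fold changes of 0.34, 0.10 and 0.16 and adjusted p-values of 0.210, 0.386 and 0.132 in limma. On the other side Ivl, which encodes involucrin, a partner of Sprr proteins in the envelope, had 0.34 ± 0.27 (SE) with an adjusted p of 0.401 in limma. The next tested genes there, Lce1a1 and Lce1b, had -0.13 and 0.13 with adjusted p-values of 0.323 and 0.357. Lelp1 passed in the main analysis and the other 6 flanking genes tested did not. In the sample channel alone Lce1b had 1.33 and Lce1a1 1.09, with adjusted p-values of 0.000733 and 0.00158 in limma, and Lce1a1 had 0.03 after median centring. Without the control arrays high in Y-linked RNA, Ivl had 0.84 and Prr9 0.53, with adjusted p-values of 0.0256 and 0.0146 in limma. Ivl also passed with the Y-linked mean as a covariate (adjusted p 0.030 in limma) and Prr9 without control replicate 3 (adjusted p 0.00368 in limma).

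Of 18 tested genes on a list of envelope scaffold and related proteins, 7 were higher and 1 was lower, with a median log2 fold change of 0.28. For this list and those below, the shares over all targets tested were 11.8% higher and 9.91% lower. Rptn (repetin) was higher by 1.48 ± 0.30 (SE), and its EED cKO range of 1.28 to 3.04 lay above its control range of 0.20 to 1.02. Slpi, a secreted protease inhibitor, was higher by 1.05 ± 0.15 (SE), and Lelp1 was described above. The other 4 that rose were Tchh, Cnfn, Kprp and Hrnr. Csta1 was lower by 0.55 on the log2 scale, with an adjusted p of 0.0417 in limma and genotypes that overlapped. The count of higher genes on this list ran from 1 to 10 over the alternatives. That of lower genes ran from 0 to 4. It was 0 in most alternatives, among them the scanner software's log ratio, median centring, no dye term and array weights. The count of lower genes was also 0 without EED cKO replicate 1, 3 or 4 or control replicate 1, 2 or 3. Loricrin and involucrin did not pass.

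Of 20 tested late cornified envelope genes, the other large family of small envelope precursors in the same complex, 10 were higher and 0 were lower in limma, with a median of 0.30; at an unadjusted p below 0.05 the counts were 12 and 0. The count of higher genes was 19 in the sample channel alone and 4 with the methods' t-test after Benjamini-Hochberg, the ends of its range over the alternatives. Lce3f was higher by 3.19 ± 0.14 (SE), from a control range of -0.12 to 0.36 to an EED cKO range of 3.20 to 3.74, and its sample signal cleared background on 4 EED cKO and 2 control arrays. Lce3d and Lce3e were higher by 2.05 ± 0.23 and 1.76 ± 0.27 (SE), and with the scanner software's log ratio Lce3e had 0.19 with an adjusted p of 0.497 in limma. Of the 6 tested Lce3 genes, 5 rose by 2-fold or more and Lce3a was not called, at 0.22 with an adjusted p of 0.0601 in limma. Lce3a, counted only at the unadjusted p, and Lce3f passed the filter on dim probes through EED cKO alone. Of the 14 tested Lce1 genes, 5 rose, and Lce1k alone by 2-fold or more. Of the 6 tested transglutaminases, the enzymes that join these proteins, Tgm1, the membrane-bound enzyme of the granular layer, was higher by 0.41 ± 0.13 (SE) with an adjusted p of 0.0457 in limma, a call that was lost in 12 of 27 alternatives. The other 5 did not pass.

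Among 12 tested genes of stressed and wounded keratinocytes, 7 were higher and 0 were lower in limma, with a median of 0.63; at an unadjusted p below 0.05 the counts were 9 and 0. S100a8, among the 7, and Defb3, counted only at the unadjusted p, passed the filter on dim probes through EED cKO alone. The count of higher genes was 3 with the scanner software's log ratio or the deposited log2 table and ran from 3 to 8 over the alternatives. Krt6b and Krt6a, keratins that appear in suprabasal cells after injury, were higher by 3.39 ± 0.14 and 2.73 ± 0.12 (SE), and Il1f6, an interleukin of the IL-1 family, by 1.88 ± 0.22 (SE). With the scanner software's log ratio Krt6a had 1.12 with an adjusted p of 0.0681 in limma, and Il1f6 turned to -0.30 with an adjusted p of 0.413. The deposited log2 table gave the same values to 2 decimals. Krt17 and Lcn2 did not pass, at 0.08 and 0.14.

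The lists of AP-1 subunits, NRF2 response genes and differentiation transcription factors gave mixed values, beside shares of 11.8% higher and 9.91% lower over all targets. Of 9 tested AP-1 subunits, 5 were higher and 1 was lower, with a median of 0.47. Batf and Fosb were higher by 0.69 ± 0.08 and 0.53 ± 0.10 (SE), and Fosl2 was lower, at -0.96 ± 0.12 (SE), with groups that did not overlap. The count of higher AP-1 subunits ran from 1 to 5 over the alternatives. Of 10 tested genes of the NRF2 antioxidant response, 4 were higher and 1 was lower, with a median of 0.09. Srxn1, Txnrd1 and Hmox1 were higher by 0.90 ± 0.13, 0.80 ± 0.10 and 0.52 ± 0.09 (SE), while Nfe2l2, which encodes NRF2, had -0.05 with an adjusted p of 0.817 in limma. Of 17 tested transcription factors of epidermal differentiation, 2 were higher and 5 were lower, with a median of -0.15. Ehf, an ETS factor of differentiating epithelia, was higher by 1.62 ± 0.18 (SE), whereas Klf4, a regulator of terminal differentiation, was lower, at -0.70 ± 0.14 (SE).

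**Figure D5:**
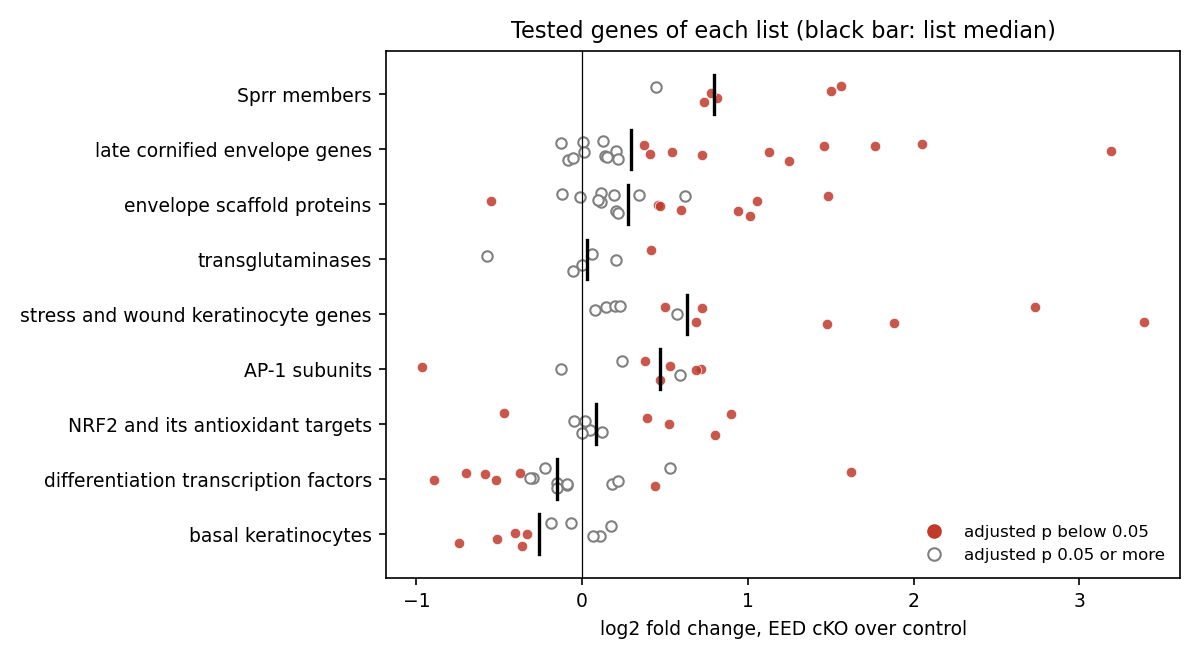
Log2 fold change of EED cKO over control (horizontal axis) for each tested gene of the Sprr members and 8 other gene lists, filled red where the adjusted p was below 0.05 and open where it was not, with a black bar at the list median. Among the lists drawn, medians run from -0.26 for basal keratinocyte genes to 0.79 for the 6 Sprr members. The late cornified envelope and stress lists each hold 2 genes above 2. Of the lists not drawn, only Merkel cell and erythroid markers had higher medians than the Sprr members, at 0.83 and 0.86.

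Markers of other cells and layers were counted in the same way. Over all targets tested, 11.8% were higher and 9.91% were lower at an adjusted p below 0.05 in limma. Of 10 tested basal keratinocyte markers, 0 were higher and 5 were lower in limma (0 and 6 at an unadjusted p below 0.05), among them Itga6 at -0.74, and their summed sample signal ran from 235900 to 263900 in EED cKO and from 274900 to 352900 in controls. Of 9 tested spinous and granular markers, 3 were higher and 0 lower, Krt2 by 1.00 and Krt77 and Tgm1 by less, and their summed signal overlapped, from 270100 to 336800 and from 269100 to 353300. Of 9 tested immune markers, 3 were higher, H2-Ab1 by 1.55 the most, with summed signals of 5338 to 7388 and 2537 to 7302. Of 4 tested endothelial markers 2 were higher, of 4 tested adipocyte markers 3 were higher, and 7 of 7 tested Merkel cell markers were higher, of which Atoh1, Sox2 and Isl1 passed the filter through EED cKO alone. The summed signal of the 7 endothelial markers was 5624 to 7144 in EED cKO and 4787 to 5171 in controls, and 2 of the 7 were dark on all arrays. That of the 7 adipocyte markers was 751 to 1079 in EED cKO and 564 to 694 in controls, with 1 dark on all arrays. The 7 melanocyte, 5 muscle and 3 erythroid markers tested had 0 that passed in limma, and 3, 1 and 1 at an unadjusted p below 0.05. Fibroblast and Schwann cell markers had 1 higher and 1 lower each, Lum and Postn among 8 tested and Tubb3 and Sox10 among 5 tested. What part any of these had in the Sprr values was not tested.

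By the pattern over the 8 arrays, after each gene's control mean was subtracted, the genes most like Sprr1a among 14973 named genes compared were Il1r2, Egr2 and Lce3b. Their root-mean-square differences from Sprr1a were 0.124, 0.141 and 0.189 on the log2 scale, and their log2 fold changes were 1.59, 1.46 and 1.46. Il1r2 encodes a decoy receptor for interleukin 1 and Egr2 an immediate early transcription factor. Il1r2 had log2 ratios of 4.16, 4.52, 4.10 and 4.50 in EED cKO and 2.13, 3.05, 3.54 and 2.23 in control replicates 1 to 4, with control replicates 2 and 3 above the other controls, as for Sprr1a. The likeness was computed in the main setting alone. The call of Il1r2 was lost in 3 of 27 alternatives, and those of Egr2 and Lce3b in 0. With the scanner software's log ratio or the deposited log2 table Il1r2 had 0.25 with an adjusted p of 0.34 in limma.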

How the data were processed

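The authors deposited, per the file headers, spot and background intensity values of 8 arrays from Agilent Feature Extraction 12.0.1.1, together with that software's log10 ratio of Cy5 over Cy3. A further deposited table holds log2 ratios per probe, from GeneSpring by the study's methods. Here the median spot intensities were background corrected (normexp, offset 50) and normalised by loess within each array in limma 3.58.1 (R 4.3.3), and each ratio was turned to sample over reference. Control and flagged spots were left out, and 19 missing values were filled with the genotype mean. RefSeq accessions gave a symbol for 28026 of 29796 probes. For each gene the probe with the brightest sample channel was used, and it was tested if well above background on 3 of 4 arrays of a genotype. The model held genotype and dye over all 8 arrays, with Benjamini-Hochberg adjustment over 23234 targets, of which 8252 had no symbol. The steps were tested on simulated data. The number of arrays limits the precision. Deviations from the genotype mean correlated between same-numbered samples of the 2 genotypes at 0.489, 0.679, 0.327 and 0.362, but the number also sets the dye, and with the dye removed at -0.144, 0.229, -0.125 and 0.0517. No label ties the numbers to a shared animal or litter, so the replicate block was kept as an alternative. Within each gene list the genes named were up to 3 that passed with genotypes that did not overlap, the largest change first; the cluster's neighbours, the 4 keratins and the 3 genes nearest to Sprr1a were named as well, and others only to complete a count. One gene that this rule would name is not reported here. The Sprr members and all gene lists were chosen with earlier results of these data known. Promoter windows came from RefSeq (GRCm38.p6). Alternatives covered background, normalisation, filter, probes, dye, pairing, weights, sex-linked RNA, the methods' unpaired test and each array left out. Figures were drawn with Python 3.11.15 and matplotlib 3.10.9. The deposited log2 table correlated at 0.9975 to 0.9994 per array with the scanner ratio turned to sample over reference, and its column medians were 0.0315 to 0.137, so its scale and direction were settled.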

Additional observations from a re-analysis of the deposited data

Results flagged for a closer look

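Of 22 groups of 4 arrays examined, 2 held a value far from the other 3 by Dixon's ratio, and chance alone gives about 1 in 20. No Sprr member was among them. The dim Sprr2a2 probe had a log2 ratio of 0.08 in EED cKO replicate 1 against 0.25 to 0.26 in the other EED cKO samples, with a ratio of 0.938. Sprr2j-ps had 0.29 in control replicate 2 against 0.17 to 0.19 in the other controls, with a ratio of 0.879.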

How the results depend on the processing

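The direction of all 6 tested members was the same in the 27 alternatives, and 0 members were lower in any of them. Sprr1a passed in 27 of 27, Sprr1b in 26, Sprr2h in 25, Sprr2e in 13, Sprr4 in 12 and Sprr2d in 0. The alternatives were not independent of each other. Quantile scaling of spot intensity after loess left the Sprr fold changes as in the main analysis. The deposited log2 table nearly repeated those of the scanner software's log ratio. Sprr1b lost its call with the methods' t-test after Benjamini-Hochberg (adjusted p 0.0733), and Sprr2h there (0.142) and with median centring in limma (adjusted p 0.051). Of the 33 named genes of the other lists, 14 kept their call in every alternative. The count of higher members, 5 in the main analysis, was 3 with the scanner software's log ratio, the deposited log2 table, no filter on dim probes, no dye term or the methods' t-test without adjustment, 2 with median centring and 1 with the methods' t-test after Benjamini-Hochberg, where Sprr1a alone passed. It was 3 to 5 with each array left out in turn, and 3 without EED cKO replicate 2 or 4 or control replicate 1, 2 or 4. The count of members changed by 2-fold or more, 2 in the main analysis, was 1 with the methods' t-test after Benjamini-Hochberg, 4 with the Y-linked mean as a covariate and 5 without the control arrays high in Y-linked RNA, an alternative chosen after seeing the data. With the replicate block, pairing by number left 5 members higher and 2 past 2-fold, and changed no call of a member. Over all targets, 54.4% of calls were higher, against 40.0% with median centring, 65.0% with the methods' t-test after Benjamini-Hochberg and 63.1% without the control arrays high in Y-linked RNA. The reversed values were those of Il1f6 (-0.30 with the log ratio and with the deposited table) and of Lce1a1 (0.028 with median centring, 1.09 in the sample channel alone). The cause of these changes was not tested. Low reference signal limits the ratios of Sprr4, and low signal in both channels those of Sprr2b, Sprr2f and Sprr3.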
